A study of Mus musculus with 4 samples.

Results

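The neurexins Nrxn2 and Nrxn3, the neuroligins Nlgn1, Nlgn2 and Nlgn3 and the leucine-rich repeat transmembrane proteins Lrrtm1, Lrrtm2, Lrrtm3 and Lrrtm4 were followed in single cells of the mouse prefrontal cortex (PFC). These 9 genes were taken by name from the 29281 genes that the count tables list. Cells were dissociated from the PFC of C57BL/6J mice at postnatal days 1 (P1), 4 (P4), 10 (P10) and 84 (adult). According to the methods of the study, all animals were female and 2 mice were used at each age. Each age is 1 library in which cells were not assigned to a mouse, so no difference between ages or classes has a replicate check, and no test was made. Levels are given as unique molecular identifiers (UMIs) out of 1000000 UMIs of a cell class (counts per 1000000, CPM), without mitochondrial and ribosomal protein genes. Every interval is at the 95% level and covers counting error only.

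Neurexins are presynaptic membrane proteins whose extracellular part reaches across the synaptic cleft. Neuroligins and LRRTM proteins sit mostly on the postsynaptic side and bind neurexins, and these pairs help to align release sites with receptors. Nlgn1 protein is known mainly from excitatory synapses, Nlgn2 protein from inhibitory synapses and Nlgn3 protein from both, while LRRTM proteins act at excitatory synapses. Glial cells also carry neuroligins.

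The 9 genes differ widely in the length of their loci, which matters below for the P1 library. In the GENCODE annotation of GRCm38, Nrxn3 spans 1612 kb (chr12:88722876-90334935, plus strand), Nlgn1 906 kb (chr3:25426215-26332460, minus strand) and Lrrtm4 791 kb (chr6:80018877-80810143, plus strand). Lrrtm3 spans 162 kb (chr10:63928472-64090277, minus strand) and Nrxn2 125 kb (chr19:6418731-6544169, plus strand). The other loci are short, namely Nlgn3 with 26.8 kb (chrX:101299168-101325963, plus strand), Lrrtm1 with 15.1 kb (chr6:77242689-77257791, plus strand), Nlgn2 with 14.7 kb (chr11:69823122-69837784, minus strand) and Lrrtm2 with 6.02 kb. Lrrtm1, Lrrtm2 and Lrrtm3 lie inside the alpha-catenin genes Ctnna2, Ctnna1 and Ctnna3, each on the opposite strand. Whether the counting used strand is not given in the sources used here, so reads of each pair could be mixed to an unknown degree.

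Promoter windows of RefSeq (250 bases before to 50 bases after a transcript start, GRCm38.p6) were read for 6 of the 9 genes, 10 windows in all. The windows of Nrxn3, Lrrtm3 and Lrrtm4 are shown because these genes had the largest differences between P4 and adult described below. Nrxn3 has 3 windows and Lrrtm4 has 2, and of each the one with the most E-boxes is printed. Counts from the 3′ end of transcripts do not tell these start sites apart. Capitals mark E-boxes (CANNTG, a palindrome and so the same on both strands), the sequence bound by neuronal bHLH factors.
Nrxn3, chr12:89812233-89812532, plus strand: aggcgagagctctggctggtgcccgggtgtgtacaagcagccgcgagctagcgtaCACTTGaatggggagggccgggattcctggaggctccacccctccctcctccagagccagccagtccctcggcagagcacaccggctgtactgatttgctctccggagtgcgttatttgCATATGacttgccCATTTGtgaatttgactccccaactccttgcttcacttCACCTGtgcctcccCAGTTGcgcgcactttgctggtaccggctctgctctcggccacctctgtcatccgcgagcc
Lrrtm3, chr10:64090206-64090505, minus strand: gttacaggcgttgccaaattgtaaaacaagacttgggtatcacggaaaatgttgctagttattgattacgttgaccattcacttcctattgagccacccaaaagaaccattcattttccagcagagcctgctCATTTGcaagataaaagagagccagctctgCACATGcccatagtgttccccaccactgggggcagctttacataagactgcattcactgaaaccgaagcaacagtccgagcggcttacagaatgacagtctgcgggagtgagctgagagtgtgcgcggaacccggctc
Lrrtm4, chr6:80018627-80018926, plus strand: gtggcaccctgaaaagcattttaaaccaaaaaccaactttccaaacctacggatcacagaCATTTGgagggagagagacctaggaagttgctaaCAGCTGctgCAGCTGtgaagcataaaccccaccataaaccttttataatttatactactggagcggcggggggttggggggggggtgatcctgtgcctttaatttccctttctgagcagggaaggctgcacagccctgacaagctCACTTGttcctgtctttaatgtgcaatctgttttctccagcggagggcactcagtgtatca
The Nrxn3 window printed holds 5 E-boxes, and the other 2 of this gene hold 0 and 1. The Lrrtm3 window holds 2, the Lrrtm4 window printed 4 and the other Lrrtm4 window 2. Of all 32851 windows of this length, 72.3% hold at least 1, so a match says nothing particular about these genes.

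The cell filter of the methods left between 11545 (P1) and 19014 (P4) cells per library, with medians of 11065 (adult) to 25800 (P1) UMIs per cell. Clusters were named from marker lists, and the 9 genes and their partners were kept out of the genes used for clustering. Intratelencephalic (IT)-like neurons, which project within the cortex and striatum, numbered 4903, 6274, 4424 and 4098 in the order of age. Layer 5 pyramidal tract (L5 PT)-like neurons numbered 721 to 1420 per age, layer 6 corticothalamic (L6 CT)-like neurons 1149 to 2376 and inhibitory neurons 1410 to 3038. In adult, all 8 inhibitory, all 7 L6 CT and all 8 astrocyte markers were highest in the class named from them, but only 5 of the 7 L5 PT markers and 3 of the 10 IT markers were. At P4 this held for 4 of 8 inhibitory markers (not for Dlx1, Dlx2, Dlx5 and Dlx6os1), 6 of 7 L6 CT, 5 of 7 L5 PT and 5 of 10 IT markers. Pairs of the P4, P10 and adult libraries shared 319 to 368 cell barcodes, and P1 shared 12 to 20 with each of them. The file header of P1 names another pipeline version than those of P4, P10 and adult, and states that enhanced beads were used and intronic reads were not excluded. P1 values are therefore given apart, and P4 is the starting age of the comparisons.

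Nrxn3 was the gene with the largest difference between P4 and adult in IT-like cells. Its level there was 32.4 CPM at P4, 216 CPM at P10 and 469 CPM in adult. The adult level was 14.5 times that of P4, a log2 ratio of 3.85 (3.80 to 3.91). In L6 CT-like cells Nrxn3 was at 118 CPM at P4, 424 CPM at P10 and 712 CPM in adult, and in L5 PT-like cells at 145 CPM at P4, 406 CPM at P10 and 514 CPM in adult. Inhibitory neurons already held 699 CPM at P4, followed by 814 CPM at P10 and 1135 CPM in adult. At P4 the inhibitory level was 21.6 times the IT-like level, and in adult 2.42 times. Microglia-like cells, a type that should lack the transcript, held 89.7 CPM at P4 and 73.2 CPM in adult. The IT-like level was below theirs at P4 and above it in adult. At P4 this class had 81 cells, or 59 without cells marked as doublets, so its level is a rough guide to background. Its Nrxn2 level was 0.49 times the IT-like one at P4 and 0.13 times in adult. As ratios, though not as differences in CPM, the Nrxn3 levels of the 4 neuron classes lay closer together in adult than at P4. The order kept inhibitory neurons at the top and IT-like neurons at the bottom. The P4 ratios to IT-like cells rest on a level below the microglia-like one, so their size is uncertain.

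Nrxn2, the other neurexin, had a flatter course with its highest neuronal levels at P10. In IT-like cells it was at 368 CPM at P4, 439 CPM at P10 and 382 CPM in adult, and in L5 PT-like cells at 416 CPM at P4, 468 CPM at P10 and 387 CPM in adult. L6 CT-like cells held 363 CPM at P4, 422 CPM at P10 and 238 CPM in adult, and inhibitory neurons 413 CPM at P4, 446 CPM at P10 and 305 CPM in adult. The adult level was below the P4 level in L6 CT-like cells (log2 ratio -0.61 (-0.66 to -0.55)) and in inhibitory neurons (-0.44 (-0.48 to -0.40)). In IT-like and L5 PT-like cells the log2 ratios were 0.05 (0.03 to 0.08) and -0.11 (-0.15 to -0.06).

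**Figure D1:**
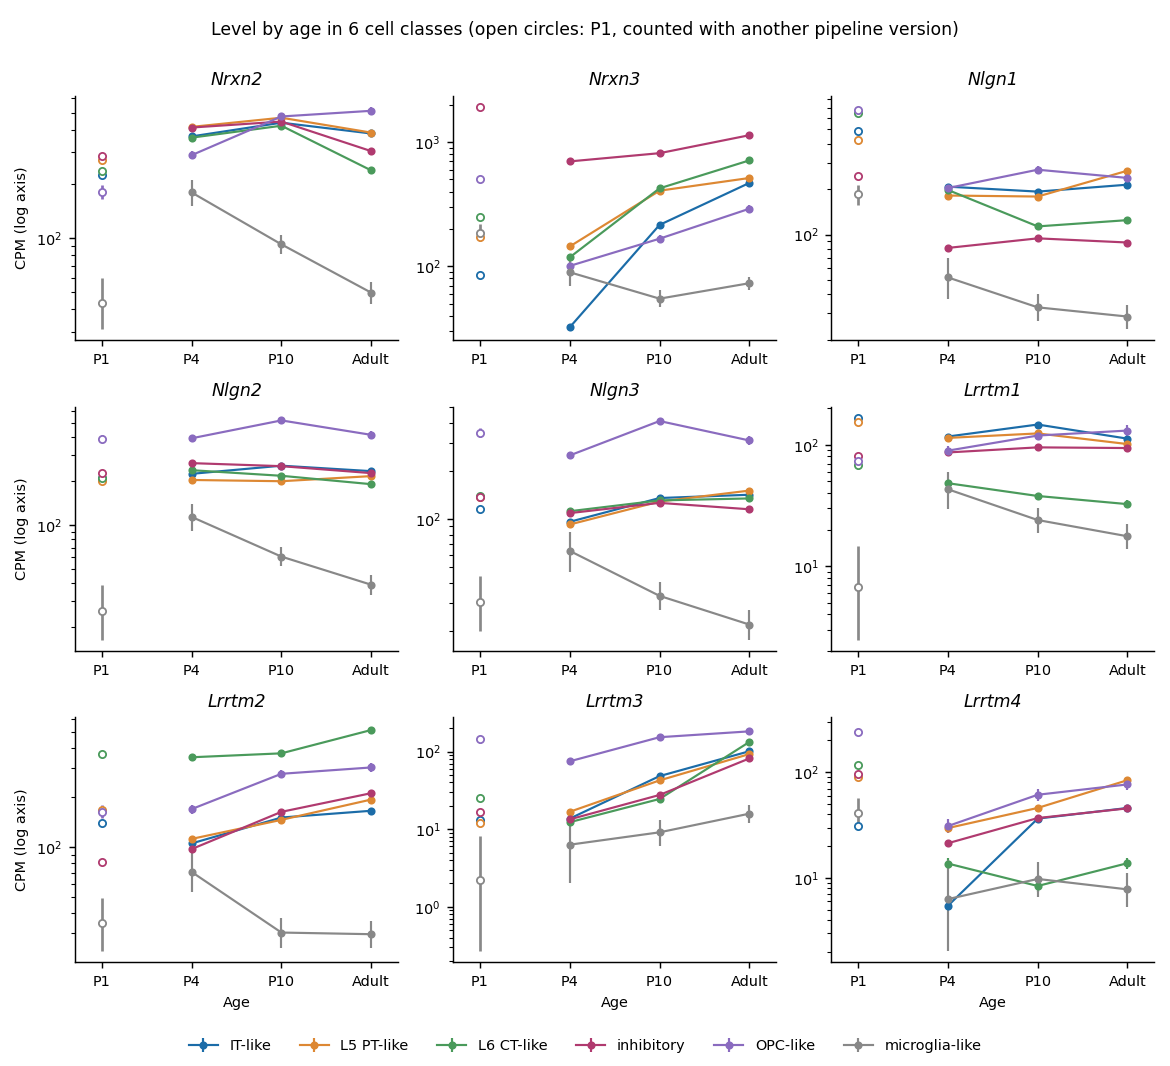
Level of each gene in CPM (log axis) at 4 ages in 6 cell classes, with 95% Poisson intervals of the UMI sum of 1 library per point. Open circles mark P1, which was counted with another pipeline version. Nrxn3 in IT-like cells goes from 32.4 CPM at P4 to 469 CPM in adult, and OPC-like cells hold the top Nlgn2 and Nlgn3 levels of the 6 classes at every age from P4 on.

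All 3 neuroligins stayed within 2-fold between P4 and adult in the 4 neuron classes. The Nlgn2 level in IT-like cells was 224 CPM at P4, 255 CPM at P10 and 234 CPM in adult. In L5 PT-like cells it was 204 CPM at P4, 199.6 CPM at P10 and 216 CPM in adult, in L6 CT-like cells 237 CPM at P4, 217 CPM at P10 and 191 CPM in adult and in inhibitory neurons 266 CPM at P4, 253 CPM at P10 and 227 CPM in adult. The log2 ratios of adult over P4 ran from -0.32 in L6 CT-like cells to 0.09 in L5 PT-like cells.

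Nlgn3 was higher in adult than at P4 in the 4 neuron classes, without reaching 2-fold. It was at 96.1 CPM at P4, 135 CPM at P10 and 142 CPM in adult in IT-like cells and at 92.4 CPM at P4, 129 CPM at P10 and 151 CPM in adult in L5 PT-like cells, with log2 ratios of adult over P4 of 0.56 (0.52 to 0.60) and 0.70 (0.63 to 0.78). L6 CT-like cells held 112 CPM at P4, 131 CPM at P10 and 134 CPM in adult, and inhibitory neurons 109 CPM at P4, 126 CPM at P10 and 115 CPM in adult, with log2 ratios of 0.27 (0.18 to 0.35) and 0.08 (0.01 to 0.15).

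Nlgn1 went in different directions in the deep-layer classes. In L5 PT-like cells it was at 182 CPM at P4, 179 CPM at P10 and 266 CPM in adult (log2 ratio to P4 0.55 (0.49 to 0.61)). In L6 CT-like cells it was at 198 CPM at P4, 113 CPM at P10 and 125 CPM in adult, a log2 ratio of -0.67 (-0.74 to -0.59). Nlgn1, Nrxn2, Nlgn2 and Lrrtm1 had a log2 ratio of adult over P4 below 0 in L6 CT-like cells. In another of the 4 classes it was above 0, and both lay beyond their intervals. This pattern held for 7.00% of all genes with at least 5 CPM in every class. The intervals narrow as UMIs rise, so genes with many UMIs pass at small ratios. Nrxn2 in IT-like cells, for example, passed at 0.05 with 29573 UMIs in adult. The share was not matched for level, so the comparison with it is not a result about these genes. IT-like cells held Nlgn1 at between 193 and 215 CPM at these 3 ages. Inhibitory neurons had the lowest level of the 4 classes at these ages, with 81.4 CPM at P4, 94.3 CPM at P10 and 88.5 CPM in adult.

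Among the LRRTM genes, Lrrtm3 was higher in adult than at P4 in all 4 neuron classes. IT-like cells held 13.7 CPM at P4, 48.4 CPM at P10 and 101 CPM in adult, and L5 PT-like cells 16.8 CPM at P4, 42.6 CPM at P10 and 93.0 CPM in adult. In L6 CT-like cells the level was 12.3 CPM at P4, 24.5 CPM at P10 and 133 CPM in adult. Inhibitory neurons held 13.4 CPM at P4, 27.6 CPM at P10 and 81.7 CPM in adult. Microglia-like cells, which should lack these transcripts, held 6.32 CPM at P4 (95% interval 2.05 to 14.7 CPM, 81 cells) and 15.9 CPM in adult in 1049 cells. Their median depth was 8692 UMIs per cell at P4 and 4259 in adult, against 16041 and 19726 in IT-like cells. With such unlike depths their CPM is a rough guide to background and not a measured floor. At P4 the log2 ratio to microglia-like cells was 1.12 (-0.11 to 2.74) in IT-like, 0.96 (-0.28 to 2.60) in L6 CT-like and 1.08 (-0.15 to 2.71) in inhibitory cells. These levels were thus not separated from the microglia-like one, and the size of the ratios to adult is uncertain.

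Lrrtm4 separated the classes. In IT-like cells it was at 5.47 CPM at P4, 36.4 CPM at P10 and 45.9 CPM in adult, and in L5 PT-like cells at 29.6 CPM at P4, 45.9 CPM at P10 and 84 CPM in adult. Inhibitory neurons held 21.3 CPM at P4, 36.9 CPM at P10 and 45.5 CPM in adult. L6 CT-like cells were at 13.7 CPM at P4, 8.40 CPM at P10 and 13.8 CPM in adult, near the 6.32, 9.79 and 7.80 CPM of microglia-like cells. In adult the L6 CT-like interval (12.2 to 15.6 CPM) lay above the microglia-like one (5.30 to 11.1 CPM). The IT-like level at P4 was no higher than that of microglia-like cells at P4, whose interval ran from 2.05 to 14.7 CPM.

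Lrrtm2 was highest in L6 CT-like cells among the 4 neuron classes at every age. Outside neurons, OPC-like cells held 1.61 times the IT-like level at P4, 1.84 times at P10 and 1.83 times in adult. L6 CT-like cells held 349.9 CPM at P4, 369.6 CPM at P10 and 512 CPM in adult. IT-like cells were at 105 CPM at P4, 151 CPM at P10 and 166 CPM in adult, L5 PT-like cells at 112 CPM at P4, 146 CPM at P10 and 194 CPM in adult and inhibitory neurons at 97.3 CPM at P4, 163 CPM at P10 and 212 CPM in adult. The L6 CT-like level was 3.32 times the IT-like level at P4, 2.45 times at P10 and 3.08 times in adult. Lrrtm1 had the opposite class pattern. L6 CT-like cells held only 48.2 CPM at P4, 37.8 CPM at P10 and 32.4 CPM in adult, against 117 CPM at P4, 147 CPM at P10 and 112 CPM in adult in IT-like cells. L5 NP-like (near-projecting) neurons of layer 5 held 70.1 CPM at P4, 102 CPM at P10 and 177 CPM in adult, so that their adult level was the highest of the neuron classes.

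Counted at 2-fold, adult IT-like cells had 3 of the 9 genes above their P4 level (Nrxn3, Lrrtm3 and Lrrtm4), where 16.0% of all genes tested (mean of both levels at least 5 CPM) were past this fold. None was at least 2-fold lower, against 19.0% of genes. In L5 PT-like cells the same 3 genes were higher, against a background of 14.6%, and 0 were lower, against 16.2%. L6 CT-like cells had 2 genes higher (Nrxn3 and Lrrtm3), against 13.4%, and 0 lower, against 19.7%. Inhibitory neurons had 3 higher (Lrrtm2, Lrrtm3 and Lrrtm4), against 13.4%, and 0 lower, against 17.5%. Lrrtm4 in inhibitory neurons was close to the limit, with a log2 ratio of 1.09 (0.96 to 1.23), and 2 genes remained past 2-fold there when cells marked as doublets were removed. At a limit of 1.5-fold, 5 genes were higher in L5 PT-like cells, against 24.3%, and 2 were lower in L6 CT-like cells, against 34.0%. The median log2 ratio of the 9 genes was 0.56 in IT-like, 0.70 in L5 PT-like, 0.01 in L6 CT-like and 0.12 in inhibitory cells. Over all genes tested the medians were -0.15, -0.07, -0.21 and -0.16. Markers of other cells also differed with age in the neuron classes. In IT-like cells the 8 astrocyte markers summed to 42.0 CPM at P4 and 134 CPM in adult and the 7 oligodendrocyte markers to 53.1 and 203 CPM. In inhibitory cells these sums were 47.3 and 345 CPM for the astrocyte markers and 53.6 and 557 CPM for the oligodendrocyte markers. In L5 PT-like and L6 CT-like cells the astrocyte sums went from 35.2 to 165 and from 52.3 to 134 CPM, and the oligodendrocyte sums from 62.1 to 261 and from 44.0 to 172 CPM. The 7 microglia markers summed to 23.9 to 43.8 CPM in the 4 classes at P4 and to 57.1 to 129 CPM in adult. Of these markers, 1 oligodendrocyte marker was at 0 in L6 CT-like cells at P4 and none elsewhere. Their part in these ratios was not tested.

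**Figure D2:**
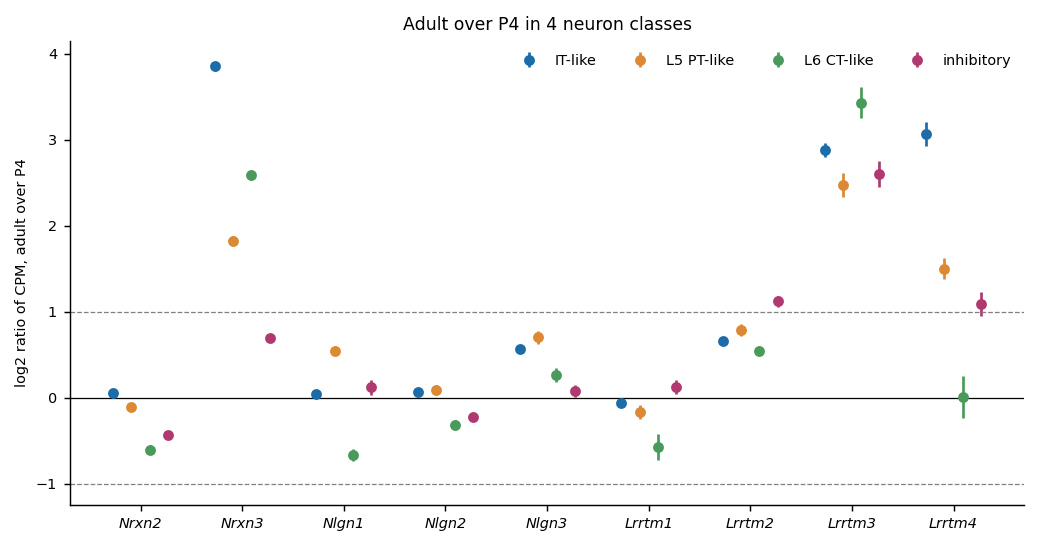
Log2 ratio of CPM, adult over P4, for the 9 genes in 4 neuron classes (1 library per age), with exact conditional binomial 95% intervals. Dashed lines mark 2-fold, and the Nrxn3 points spread from 0.70 in inhibitory to 3.85 in IT-like cells.

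At P1 several of the long genes differed from P4. Nlgn1 was at 492 CPM in IT-like cells at P1 and 208 CPM at P4, and at 185 and 51.8 CPM in microglia-like cells, of which the P1 library held 34. Nrxn3 in inhibitory neurons was at 1901 CPM at P1 and 699 CPM at P4, and Lrrtm4 at 95.8 and 21.3 CPM. Nrxn2 went the other way in IT-like cells, with 226 CPM at P1 and 368 CPM at P4, and Lrrtm3 was at 13.2 and 13.7 CPM. For the short gene Nlgn2 the P1 and P4 levels in IT-like cells were 210.5 and 224 CPM. Over all genes tested in IT-like cells, the median log2 ratio of P1 over P4 was -0.18 for loci under 10 kb and 0.71 for loci over 300 kb, while for P10 over P4 these medians were -0.01 and 0.18. The pipeline version, the bead version and age cannot be told apart at P1. From P1 to adult, Nrxn3 in IT-like cells went from 85.9 to 469 CPM and Lrrtm3 from 13.2 to 101 CPM. Microglia-like cells at P1 held 187 CPM of Nrxn3, above the IT-like level and not separated from that of L5 PT-like cells (log2 ratio of L5 PT-like over microglia-like cells -0.12 (-0.35 to 0.11)), so the size of these Nrxn3 ratios over P1 is uncertain. Against P1, 2 of the 9 genes were at least 2-fold higher in adult in each neuron class, where the shares over all genes were 17.3% in IT-like, 16.3% in L5 PT-like, 15.8% in L6 CT-like and 17.3% in inhibitory cells. At least 2-fold lower than at P1 were 1, 0, 3 and 2 of the 9 genes in the same order of classes, against 27.7%, 24.6%, 28.9% and 27.2% of all genes. Those higher were Nrxn3 and Lrrtm3 in the 3 glutamatergic classes and Lrrtm2 and Lrrtm3 in inhibitory cells. Those lower were Nlgn1 in IT-like cells, Nlgn1, Lrrtm1 and Lrrtm4 in L6 CT-like cells and Nlgn1 and Lrrtm4 in inhibitory cells.

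In the adult cortex, 1 gene was past 2-fold in each direction between inhibitory and IT-like neurons, a share near that of all genes. Nrxn3 was 2.42 times higher in inhibitory neurons, the only gene of the 9 past 2-fold in this direction, where 9.03% of all genes were. Nlgn1 was 2.43 times lower (88.5 against 215 CPM), the only one past 2-fold in the other direction, against 7.71% of genes. Nlgn2 was at 227 and 234 CPM in these classes. Compared with IT-like cells, L6 CT-like cells had Lrrtm2 higher (log2 ratio 1.62 (1.59 to 1.66), 1 of 9 genes against 3.36% of all genes). They had Lrrtm1 (-1.79 (-1.91 to -1.67)) and Lrrtm4 (-1.73 (-1.92 to -1.55)) lower, 2 of 9 genes against 5.17%. L5 PT-like cells had 0 genes past 2-fold higher, against 2.91%, and 0 lower, against 4.40%. At 1.5-fold, L6 CT-like cells had 2 genes higher, against 7.01%, and 4 lower, against 8.92%, and L5 PT-like cells 1 higher, against 6.29%. In L5 PT-like cells Lrrtm4 was the farthest from IT-like cells among the 9, with a log2 ratio of 0.87 (0.78 to 0.96).

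**Figure D3:**
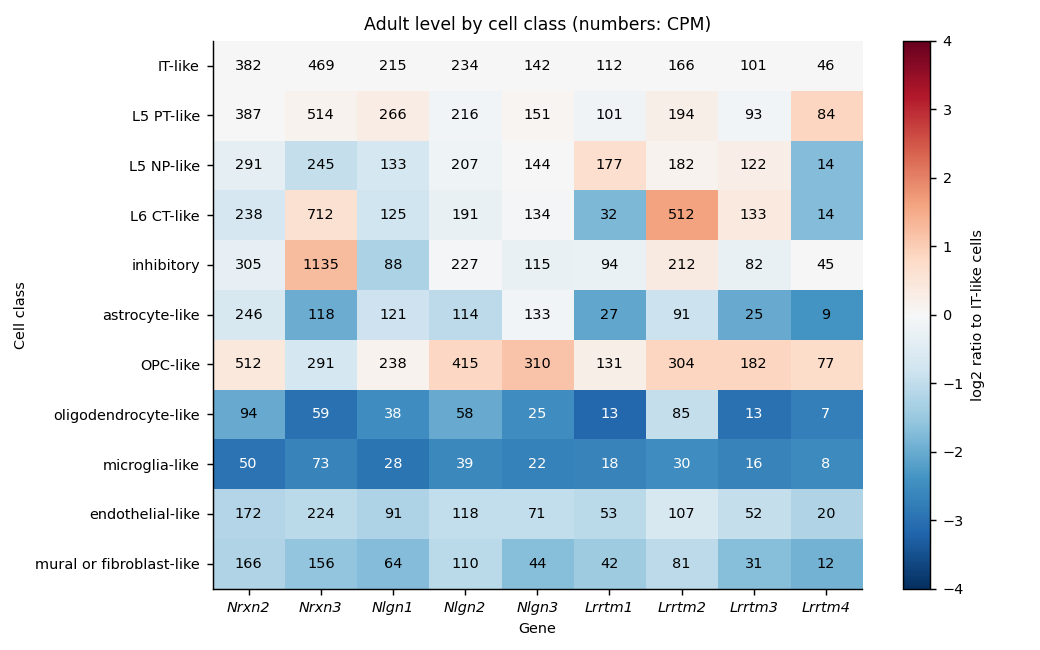
Adult level of each gene (columns) in 11 cell classes (rows), with numbers in CPM and colour for the log2 ratio to IT-like cells. L6 CT-like cells stand out for Lrrtm2 (512 CPM), inhibitory neurons for Nrxn3 and OPC-like cells for Nlgn2 and Nlgn3.

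Outside neurons, oligodendrocyte precursor (OPC)-like cells held levels at or above those of IT-like neurons for 8 of the 9 genes in adult, where 61.8% of all genes were at or above. Nlgn3 was at 249.8 CPM at P4, 409.6 CPM at P10 and 309.7 CPM in adult OPC-like cells, and the adult log2 ratio to IT-like cells was 1.13 (1.03 to 1.22). Nlgn2 was at 393 CPM at P4, 521 CPM at P10 and 415 CPM in adult, with an adult log2 ratio to IT-like cells of 0.83 (0.74 to 0.91). Lrrtm3 was at 75.1 CPM at P4, 153 CPM at P10 and 182 CPM in adult, and already at P4 its level was 5.47 times that of IT-like cells. The exception was Nrxn3, at 291 CPM against 469 CPM in IT-like cells. Mature oligodendrocyte-like cells of the adult held 25.1 CPM of Nlgn3 and 58.2 CPM of Nlgn2, against 21.9 and 39 CPM in microglia-like cells, and the intervals for Nlgn3 overlapped. Lrrtm2, at 85.0 CPM, was nearest of the 9 to the IT-like level, with a log2 ratio of -0.97 (-1.1 to -0.82). The oligodendrocyte-like cluster of P10, with Enpp6 and Bcas1 among its leading genes where the adult one had Mog and Mal, may differ in stage and held Nlgn3 and Nlgn2 at 202 and 348 CPM. The OPC-like clusters were named partly from Gpr17, which marks committed precursors, so they cover more than 1 stage.

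Astrocyte-like cells of the adult had 5 of the 9 genes at least 2-fold below IT-like cells (Nrxn3, Nlgn2, Lrrtm1, Lrrtm3 and Lrrtm4), where 20.2% of all genes were, and 0 above, against 22.6%. At 1.5-fold, 8 genes were lower, against 30.8%. Nlgn3 was the gene nearest to the IT-like level, at 133 CPM in astrocyte-like and 142 CPM in IT-like cells. It was 6.05 times the microglia-like level. Lrrtm4, at 8.82 CPM, was not separated by its interval from the 7.80 CPM of microglia-like cells. In astrocyte-like cells the 10 IT markers summed to 2628 CPM in adult, and their part in these levels was not tested.

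To compare how many cells carried each transcript, each cell was thinned to 2000 UMIs. In adult, a Nrxn3 UMI was then found in 81.6% (79.4 to 83.6%) of inhibitory, 75.5% (72.9 to 77.9%) of L6 CT-like, 57.4% (55.9 to 59.0%) of IT-like and 10.3% (8.52 to 12.3%) of microglia-like cells. At P4 the share in IT-like cells was 5.28%, next to 5% in microglia-like cells. Without thinning the adult and P4 shares in IT-like cells were 95.3% and 25.1%, at median depths of 19726 and 16041 UMIs per cell, against 4259 and 8692 in microglia-like cells. Thinning left out 22 IT-like cells at P4 and 69 in adult. Lrrtm2 was found in 63.7% (60.9 to 66.5%) of adult L6 CT-like and 27.4% (26.1 to 28.8%) of IT-like cells. Nlgn3 was found in 52.0% (47.6 to 56.3%) of adult OPC-like cells, against 25.8% (24.4 to 27.1%) of IT-like and 3.85% (2.77 to 5.21%) of microglia-like cells. Over the 9 genes and 4 neuron classes at P10 and in adult, 70 of 72 shares lay above the microglia-like share beyond both intervals. The other 2 were Lrrtm4 in L6 CT-like cells at P10 (1.77% against 1.33%) and in adult (2.44% against 1.54%). At 1000 UMIs per cell 4 shares were not above, these 2 and those of Lrrtm4 in inhibitory cells at P10 and Lrrtm1 in adult L6 CT-like cells. Without thinning all 72 were above, at a lower depth of the microglia-like cells. P4 was not part of these counts, and no such share was taken over all genes. The counts therefore describe separation from microglia-like cells and nothing particular to the 9 genes.

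Within inhibitory neurons, subtypes named at a finer cluster resolution differed in several of the 9 genes. In adult, Nrxn3 was at 2000 CPM (95% interval 1958 to 2043) in Vip-like, 1318 CPM (95% interval 1294 to 1342) in Sst-like, 689.5 CPM in Pvalb-like and 583 CPM in Lamp5-like cells. Vip-like cells are mostly interneurons that inhibit other interneurons, Sst-like cells target dendrites and Pvalb-like cells the region around the soma. From P4 to P10 and adult, Nrxn3 was at 681, 1144 and 2000 CPM in Vip-like cells but at 631, 546 and 689.5 CPM in Pvalb-like cells. The log2 ratio of adult over P4 was 1.55 (1.5 to 1.60) in Vip-like and 0.13 (0.07 to 0.18) in Pvalb-like cells. At P1 and P4 the Pvalb-like clusters were not led by Pvalb itself and were named from other markers of the list, among them Lhx6.

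Lrrtm2 had another order, with 316 CPM in adult Pvalb-like, 257 CPM in Lamp5-like, 177 CPM in Vip-like and 116 CPM in Sst-like cells. Its log2 ratio of adult over P4 was 1.38 (1.27 to 1.48) in Pvalb-like and 0.82 (0.68 to 0.95) in Sst-like cells. Lrrtm1 was the reverse, lowest in Pvalb-like (49.2 CPM) and highest in Sst-like cells (137 CPM). Lrrtm4 was at 70.6 CPM in Vip-like and at 15.7 CPM in Lamp5-like cells. Nlgn2 levels ran from 222 to 251 CPM over the 4 subtypes, and Nlgn3 levels from 102 to 124 CPM, and the intervals of neighbours in these orders overlapped. The ends of these orders differed beyond counting error, with log2 ratios of 0.18 (0.05 to 0.30) for Nlgn2 in Lamp5-like over Sst-like cells and 0.28 (0.08 to 0.48) for Nlgn3 in Sst-like over Lamp5-like cells.

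**Figure D4:**
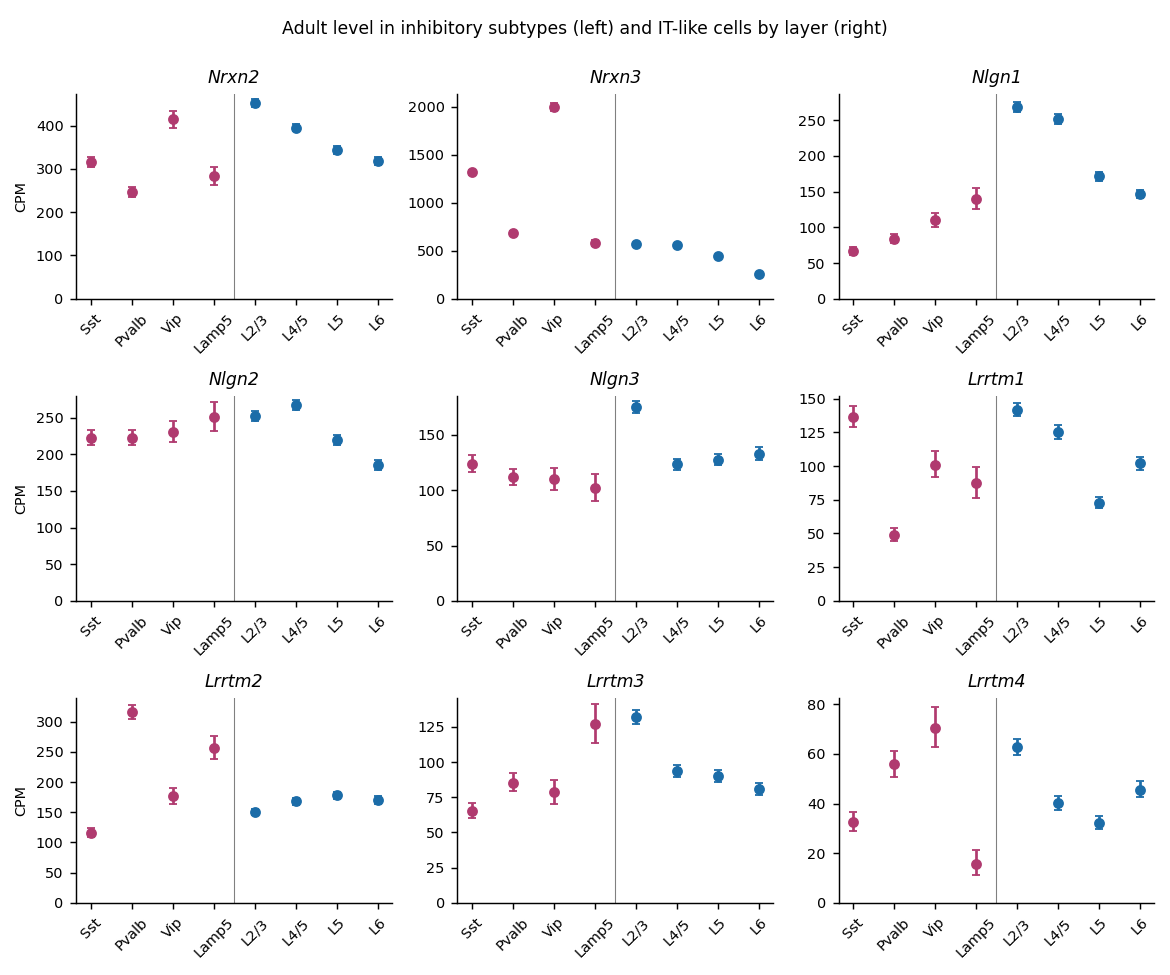
Adult level of each gene in CPM in 4 inhibitory subtypes (left of the line) and in IT-like cells of 4 layers (right), with 95% Poisson intervals of 1 library. Nrxn3 is highest in Vip-like cells (2000 CPM), and Nlgn1 is higher in L2/3 and L4/5 than in L5 and L6.

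Within IT-like cells of the adult, L2/3 had the highest value of the 4 layers for 7 of the 9 genes, all but Nlgn2 and Lrrtm2, where 31.6% of all genes were highest in L2/3. Nlgn1 was at 269 CPM in L2/3, 251 CPM in L4/5, 171 CPM in L5 and 147 CPM in L6. Nrxn3 was at 569.5, 558, 441 and 261 CPM in the same order, where the first 2 did not differ beyond their intervals. At P10, Nrxn3 had been highest in L4/5 (332 CPM) and lowest in L2/3 (147 CPM). Adult over P10, its log2 ratio was 1.95 (1.89 to 2.01) in L2/3 and 0.21 (0.16 to 0.27) in L6. Lrrtm3 was highest in L2/3 (132 CPM) and lowest in L6 (81.0 CPM). Lrrtm1 was lowest in L5 (72.8 CPM) and highest in L2/3 (142 CPM). The adult L5 cluster and 1 of the 2 adult L2/3 clusters were led by activity genes (Nptx2, Bdnf and Egr3), whose part in these orders was not tested. At P1 no IT-like cluster had a layer name, and at P4 only L5 and L6 were named, and most IT-like cells were in clusters with no layer name. Lrrtm3 was at 10.1 CPM in L5 and 22.7 CPM in L6 at P4, and at 90.2 and 81.0 CPM in adult, the opposite order.

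The partners of these proteins were described in IT-like cells, adult over P4, from a list of 71 genes in 10 role groups. Of the 67 with a mean level of at least 5 CPM, 25 were at least 2-fold higher in adult and 5 at least 2-fold lower, where the shares over all genes were 16.0% and 19.0%. Among secreted neurexin ligands, Cbln4 was at 1.1 CPM at P4 and 14.6 CPM in adult, a log2 ratio of 3.71 (3.42 to 4.01), and Cbln1 at 43.7 CPM at P4 and 19.9 CPM in adult, a log2 ratio of -1.13 (-1.22 to -1.05). Both are cerebellins, of which Cbln1 links neurexins to postsynaptic receptors of the GluD type. Of the membrane partners, Car10, a secreted carbonic anhydrase-related protein that binds neurexins, was at 2.74 CPM at P4 and 537 CPM in adult, a log2 ratio of 7.62 (7.44 to 7.80). Cbln4 and Car10 were below 5 CPM at P4 and met the limit through their adult levels. Their P4 levels were not compared with a background, so the size of both ratios is uncertain. Mdga1, which binds neuroligins and keeps them from neurexins, was at 59.0 CPM at P4 and 7.84 CPM in adult, a log2 ratio of -2.91 (-3.04 to -2.79). It was the only one of the 3 neuroligin modulators past 2-fold.

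On the postsynaptic side, 6 of 10 receptor genes and 4 of 10 excitatory scaffold genes were at least 2-fold higher and 0 were lower. Over all genes tested, 16.0% were higher and 19.0% lower. Dlg1, the scaffold SAP97, was at 45.4 CPM at P4 and 298 CPM in adult, a log2 ratio of 2.72 (2.67 to 2.77). On the presynaptic side, Lin7a was at 16.7 CPM at P4 and 82.8 CPM in adult, a log2 ratio of 2.31 (2.23 to 2.39), while its paralog Lin7c was at 393 CPM at P4 and 93.4 CPM in adult, a log2 ratio of -2.07 (-2.11 to -2.04). Khdrbs2, an RNA-binding protein that acts on neurexin splicing, was at 50 CPM at P4 and 12.9 CPM in adult, a log2 ratio of -1.95 (-2.05 to -1.85). Gpc4, a glypican that binds Lrrtm4 protein, was at 7.17 CPM at P4 and 16.1 CPM in adult, a log2 ratio of 1.17 (1.03 to 1.31). Of the 19 other organizers, 7 were higher and 1 was lower, against 16.0% and 19.0% of all genes. The ends of that range were Il1rapl1, which binds presynaptic receptor phosphatases, with 11.5 CPM at P4 and 52.7 CPM in adult, a log2 ratio of 2.20 (2.10 to 2.30), and Lrfn4, a SALM family adhesion protein, with 31.2 CPM at P4 and 14.1 CPM in adult, a log2 ratio of -1.15 (-1.25 to -1.04).

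**Figure D5:**
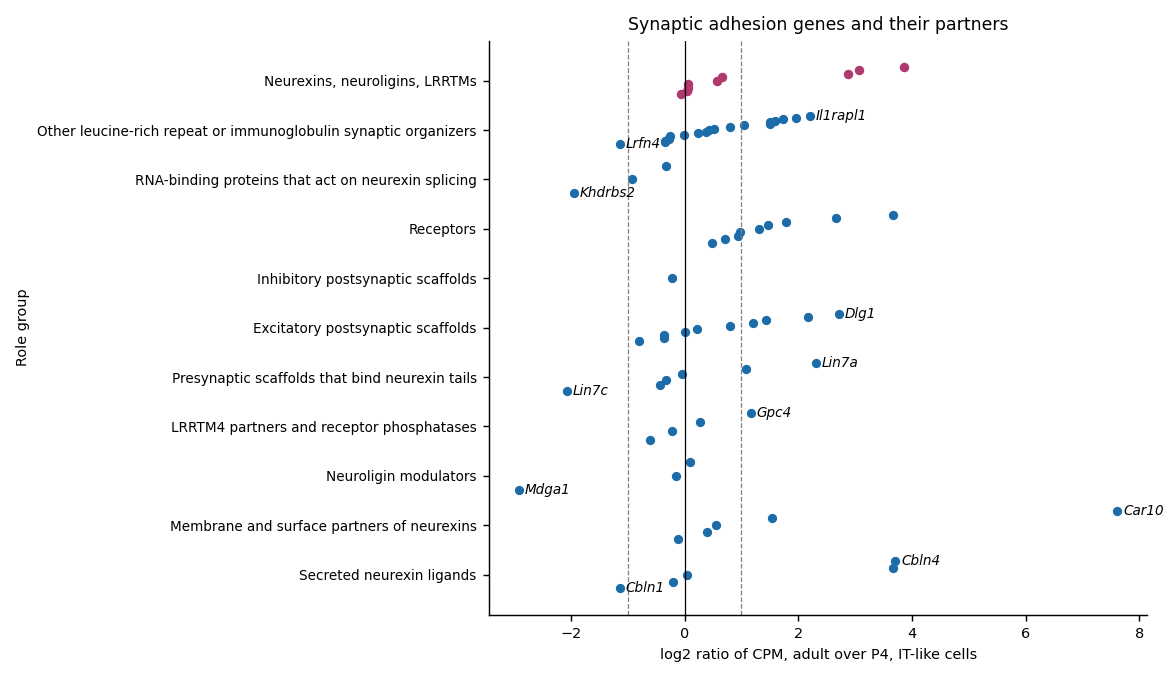
Log2 ratio of CPM, adult over P4, in IT-like cells for 65 partner genes by role group and for the 9 adhesion genes (top row), 1 library per age. Dashed lines mark 2-fold, and Car10, at 7.62, lies farthest to the right, from a P4 level of only 2.74 CPM.

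Across 38 profiles of a class at an age (at least 50 cells), the genes whose log2(CPM + 1) followed each gene most closely were sought among 12426 genes. Profiles of an age share a library, so these correlations are a description. Nlgn3 was followed by Grid1 (r = 0.96), Gria2 (r = 0.92) and Cadm2 (r = 0.91), and Nrxn2 by Fam69b (r = 0.92), Elovl4 (r = 0.91) and Reep2 (r = 0.91). Grid1 encodes a GluD receptor and Gria2 an AMPA receptor subunit. Nlgn2 was followed by Plppr5 (r = 0.90), Grik5 (r = 0.90) and Tmem121 (r = 0.90), and Lrrtm3 by Susd4 (r = 0.92), Nalcn (r = 0.90) and Dcaf12l1 (r = 0.90). For Nlgn1 the closest genes were Gpr45 (r = 0.89), Adgrb3 (r = 0.88) and Zfp763 (r = 0.88), for Lrrtm1 Kcnb2 (r = 0.88), Gal3st3 (r = 0.86) and Dpp6 (r = 0.85) and for Lrrtm2 Slitrk1 (r = 0.87) and Usp13 (r = 0.83). Nrxn3 was followed by Gria1 (r = 0.86), Dlgap2 (r = 0.81) and Sema3a (r = 0.81), of which Gria1 encodes an AMPA receptor subunit. Lrrtm4 was followed by Sntg1 (r = 0.84), Il1rapl1 (r = 0.84) and Grik2 (r = 0.81), and without the P1 profiles these correlations ranged from 0.71 to 0.76. All these genes were picked with the P1 profiles included, and 31 profiles remained without P1. Correlations of other genes then moved in both directions. Nlgn1 with Gpr45 was at 0.82 and Nrxn3 with Dlgap2 at 0.76, while Nrxn3 with Gria1 was at 0.90.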

How the data were processed

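Dissociated PFC cells were profiled with the 3′ whole transcriptome workflow of BD Rhapsody, 1 library per age. The values the authors deposited are raw UMI counts for every gene of every cell, from alignment to GRCm38 with GENCODE vM19. Per the file headers, P1 was counted with version 1.11 with intronic reads kept, and P4, P10 and adult with version 1.8, for which the intronic setting is not given. A library held between 200198548 (adult) and 340724049 (P1) UMIs.

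Cells with at least 1000 UMIs, 1000 genes and at most 15% mitochondrial UMIs were kept. Each library was clustered in scanpy 1.11.5 (2000 variable genes, 30 principal components, 20 neighbours, Leiden resolution 0.5, and 1.0 for subtypes and layers). Clusters were named from fixed marker lists with thresholds set after the clusters had been seen, and 5.67% (adult) to 20.8% (P1) of cells stayed unnamed. Scrublet marked 5.26% to 9.63% of cells as doublets, which were kept. The authors' cell annotation was not used here. UMIs were summed per class. Intervals are exact (Poisson for levels, conditional binomial for ratios, Clopper-Pearson for shares) and cover counting error only.

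All 9 genes were named in every class, partners by the largest difference of each role group in either direction, and genes of like pattern by the 3 highest correlations, and some genes that these rules name are not reported here. The genes and lists were chosen with earlier results of these data known. Alternatives covered the clustering, doublets, cell filter, scaling, weighting of cells, depth, fold limit, background filter and starting age.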

Additional observations from a re-analysis of the deposited data

Results flagged for a closer look

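For 4 genes the log2 ratio of adult over P4 lay above 0 in at least 1 neuron class. In L6 CT-like cells it lay below 0, each beyond its counting interval, as for 7.00% of all genes tested. This call depends on the UMI sum of a gene, for which that share was not matched. Nlgn1 had the widest gap, with a log2 ratio of 0.55 in L5 PT-like and -0.67 in L6 CT-like cells. Nrxn2 was at 0.05 in IT-like and -0.61 in L6 CT-like cells, and Lrrtm1 at 0.12 in inhibitory and -0.57 in L6 CT-like cells. Inhibitory subtypes differed for Lrrtm1, with log2 ratios of 1.02 in Vip-like, 0.12 in Sst-like and -0.31 in Pvalb-like cells. Nlgn2 was at 0.09 in L5 PT-like and -0.32 in L6 CT-like cells. With P1 as the starting age, Nlgn1 was at -0.67 in L5 PT-like cells and Nrxn2 at 0.02 in L6 CT-like cells, and neither gene's pair of classes lay on opposite sides of 0. With 1 library per age these differences between classes were not tested.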

How the results depend on the processing

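No paired analysis was possible because each age has 1 library and no comparison was tested. Across the alternatives, 147 of 156 counts stayed within 1.5 times the reported count. The alternative background filter leaves the counts unchanged by design, and a change from 3 to 2 genes also falls within this limit. Of 549 recomputed log2 ratios of single genes, 335 stayed within the counting interval of the reported ratio, 212 lay outside it and 2 that were past 2-fold turned direction. Those outside numbered 47 of 72 with cells thinned to 2000 UMIs, 44 of 72 with means over cells, 39 of 72 with median-of-ratios scaling and 32 of 36 with P1 as the starting age. With P1 as the starting age, members at least 2-fold lower in adult numbered 1 in IT-like, 3 in L6 CT-like and 2 in inhibitory cells (27.7%, 28.9% and 27.2% of all genes), where 0 were lower than at P4, and the log2 ratio of Lrrtm4 turned to -0.10 in L5 PT-like and -1.07 in inhibitory cells. P1 differs in pipeline and bead version, and the cause was not tested. At a limit of 1.5-fold, 5 genes were higher in adult L5 PT-like cells (24.3% of all genes) and 2 lower in L6 CT-like cells (34.0%) than at P4. At the same limit in adult, L6 CT-like cells had 2 genes above (7.01%) and 4 below (8.92%) IT-like cells, L5 PT-like cells 1 above (6.29%) and astrocyte-like cells 8 below (30.8%). Median-of-ratios scaling sets a log2 ratio to 0 that was -0.18 for adult over P4 in L6 CT-like and -0.10 in inhibitory cells, and 0.12 for inhibitory and 0.16 for astrocyte-like over IT-like cells in adult. Lrrtm4 in inhibitory neurons was no longer past 2-fold over P4 without doublets or with the stricter cell filter. Counting a P4 cluster of 1477 cells, left unnamed for an L6 CT marker among its leading genes, as IT-like was chosen after seeing the data and kept the counts of 3 higher and 0 lower. Under this alternative, 4 of 9 log2 ratios lay outside the counting interval of the reported ratio. At P4 the IT-like levels of Nrxn3 and Lrrtm4 were no higher than those of microglia-like cells, and those of Lrrtm3 in IT-like, L6 CT-like and inhibitory cells and of Lrrtm4 in L6 CT-like cells were not separated from them, so the size of their ratios is uncertain.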
